A study of Homo sapiens with 18 samples.

Results

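The AP-1 family genes were examined as targets of 2 other transcription factors, the glucocorticoid receptor (GR) and RELA, the p65 subunit of NF-κB. The members were 10 genes, JUN, JUNB, JUND, FOS, FOSB, FOSL1, FOSL2, ATF3, MAFF and MAFK. A binding site was taken when the deposited table of GR and RELA sites named 1 of these genes as its nearest gene. Of 11571 sites, 11 met this rule, 5 for FOSL2, 4 for FOS, 1 for JUN and 1 for MAFK. Thus 4 of the 10 genes had a site, and JUNB, JUND, FOSB, FOSL1, ATF3 and MAFF had no line of their own.

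The sites came from ChIP-seq on A549, an established human lung carcinoma line with features of type II alveolar epithelium. The cells, held overnight without serum, were left unstimulated (NS) or treated for 1 h with IL1B at 1 ng/ml, the glucocorticoid budesonide at 300 nM, or IL1B-plus-budesonide. GR and RELA were each precipitated in all 4 conditions and input DNA was sequenced, giving 9 conditions with 2 libraries each. The table gives 4 lines per site, GR with budesonide, GR with IL1B-plus-budesonide, RELA with IL1B and RELA with IL1B-plus-budesonide. GR with IL1B alone and RELA with budesonide alone were not analysed here. All values refer to 1 cell line, and a table of binding sites cannot be checked against markers of cell identity.

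AP-1 is a dimer of basic leucine zipper proteins. JUN proteins pair with themselves or with FOS proteins, FOS proteins need a JUN partner, and the dimers bind the element TGANTCA and its cyclic AMP type relative TGACGTCA. JUN and FOS are textbook immediate early genes, switched on by cytokines, serum and stress through MAP kinases. Both GR and NF-κB are known to work at enhancers that also hold AP-1.

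For the values below, binding intensity is the authors' level of a factor at a site on a log scale, and fold is its log2 difference from NS cells for the same antibody. Each is 1 deposited value for both libraries together, so no error stands beside it, and sequencing depth behind a site is unknown. The false discovery rate (FDR) is the authors' adjusted p-value of the treatment against NS. A site was called for a factor when the FDR was at most 0.05, the fold above 1 and the intensity at least 4. A call was gained when it was met with IL1B-plus-budesonide but not with the single agent, lost in the opposite case, and maintained when it was met with both. Differences between the single agent and IL1B-plus-budesonide are differences between 2 folds that share the NS libraries, and the table holds no test of them.

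The 11 sites were each 400 bp wide, and their reference sequence (GRCh38, plus strand, 5′ to 3′) was searched on both strands for elements of the factors. The κB consensus, the element of NF-κB, was present in full in 2 of the 11 sites, against 21.1% of all sites. Both belonged to FOSL2, and the central 160 bases of each are shown with the κB element in capitals because both factors were called at these sites with IL1B-plus-budesonide. The element lay 31 and 47 bp from the centre, in that order. Both factors were also called with IL1B-plus-budesonide at FOS +23.0 kb, FOSL2 -122.8 kb and MAFK, which held no full κB match.
FOSL2 -52.2 kb, chr2:28339972-28340131: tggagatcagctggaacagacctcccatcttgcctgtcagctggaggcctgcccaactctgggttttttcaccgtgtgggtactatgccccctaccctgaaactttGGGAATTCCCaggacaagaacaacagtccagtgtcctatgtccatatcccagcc
FOSL2 +4.2 kb, chr2:28396756-28396915: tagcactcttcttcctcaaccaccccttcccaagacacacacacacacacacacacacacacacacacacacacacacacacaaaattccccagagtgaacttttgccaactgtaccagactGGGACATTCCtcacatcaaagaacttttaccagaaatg

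The AP-1 element TGANTCA was present in 3 of the 11 sites, against 30.8% of all sites. These are shown, with the element in capitals, because they pair the family's own recognition element with sites assigned to its genes. The central 160 bases are given for MAFK and for the FOSL2 site at -117.1 kb, where the element lay 52 and 58 bp from the centre. The central 300 bases are given for FOSL2 at -122.8 kb, where it lay 132 bp away.
MAFK -9.8 kb, chr7:1520659-1520818: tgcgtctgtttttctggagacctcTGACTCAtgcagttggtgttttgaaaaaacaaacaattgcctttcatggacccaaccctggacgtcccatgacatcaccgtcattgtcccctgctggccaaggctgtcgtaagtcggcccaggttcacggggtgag
FOSL2 -117.1 kb, chr2:28275040-28275199: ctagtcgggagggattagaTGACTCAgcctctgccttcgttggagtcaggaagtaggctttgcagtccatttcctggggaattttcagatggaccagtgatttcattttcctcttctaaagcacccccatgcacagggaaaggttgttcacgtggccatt
FOSL2 -122.8 kb, chr2:28269348-28269647: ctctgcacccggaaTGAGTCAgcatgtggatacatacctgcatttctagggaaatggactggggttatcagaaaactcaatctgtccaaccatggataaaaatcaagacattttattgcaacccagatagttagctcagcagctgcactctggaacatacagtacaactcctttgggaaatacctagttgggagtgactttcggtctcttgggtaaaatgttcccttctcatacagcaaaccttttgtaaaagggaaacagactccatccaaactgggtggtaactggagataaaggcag
The element TGACGTCA was in none of the 11 sites and in 1.21% of all sites.

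No site held the GR response element (GRE) palindrome at 10 or more of its 12 fixed positions, which 13.8% of all sites did. The shorter GRE core, ACANNNTGT, a search added after the data were seen, was present in 3 of the 11 sites and in 30.8% of all sites. Within the central 200 bp it was in the same 3 sites and in 26.0% of all sites. GR was also called with each treatment at sites without the core, among them MAFK and FOSL2 at -122.8 kb, which had the highest GR intensities. The central 160 bases of these 3 are shown with the core in capitals, because GR was called at each with both treatments and the core lay 6, 4 and 26 bp from the centre of the JUN, FOS and FOSL2 site, respectively.
JUN -145.6 kb, chr1:58930054-58930213: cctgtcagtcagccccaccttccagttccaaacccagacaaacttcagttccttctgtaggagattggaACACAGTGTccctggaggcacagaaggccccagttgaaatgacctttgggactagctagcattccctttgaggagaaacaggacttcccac
FOS +23.0 kb, chr14:75301891-75302050: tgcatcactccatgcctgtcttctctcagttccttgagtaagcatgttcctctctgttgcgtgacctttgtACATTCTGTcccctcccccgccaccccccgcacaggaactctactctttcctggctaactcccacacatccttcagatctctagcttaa
FOSL2 -1.1 kb, chr2:28391108-28391267: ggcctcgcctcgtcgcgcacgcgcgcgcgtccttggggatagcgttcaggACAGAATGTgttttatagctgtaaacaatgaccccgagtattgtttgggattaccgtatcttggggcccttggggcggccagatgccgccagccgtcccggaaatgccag
The remaining 3 sites, all of FOS, held no full match to the κB, AP-1 or GRE core letters. A match describes the letters only.

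As a group, the 11 sites were more often called for GR than for RELA, as were all sites. GR was called at 8 with budesonide, compared with 56.0% of all sites, and at 9 with IL1B-plus-budesonide, compared with 60.5%. RELA was called at 4 with IL1B (40.9% of all sites) and at 5 with IL1B-plus-budesonide (42.1%). Both factors were called with IL1B-plus-budesonide at 5 of the 11 sites, 1 of FOS, 3 of FOSL2 and the MAFK site, against 26.8% of all sites. GR with budesonide alone and RELA with IL1B alone were both called at 2, FOSL2 at +4.2 kb and MAFK, against 10.1%. With 11 sites on 4 genes, these shares are descriptions.

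Median intensity over the 11 sites was 5.27 for GR with budesonide, against 4.65 over all sites, and 5.52 with IL1B-plus-budesonide, against 4.64. For RELA it was 4.44 with IL1B, against 4.26, and 4.71 with IL1B-plus-budesonide, against 4.37. By intensity, the sites therefore lay above the middle of the table for GR and close to it for RELA. By fold, they lay close to the middle for both factors. Median GR fold was 3.19 with budesonide, against 3.17 over all sites, and 3.58 with IL1B-plus-budesonide, against 3.38. For RELA it was 1.97 with IL1B, against 1.83, and 2.13 with IL1B-plus-budesonide, against 2.09. The 11 sites were also nearer their gene, at a median distance of 23.99 kb compared with 64.04 kb. However, none was within 1 kb of the start of its assigned gene, where 3.45% of all sites lay. Their GC content was higher, with a median of 52.5% against 44.5%.

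**Figure D1:**
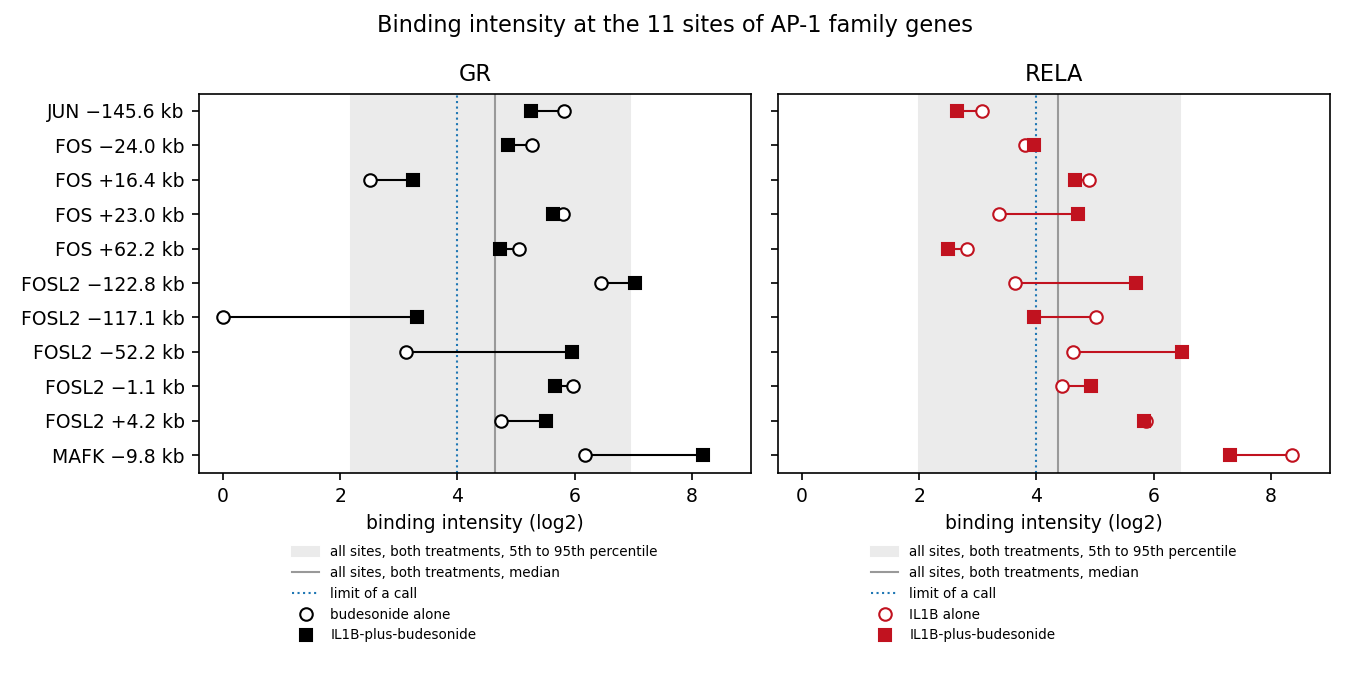
Binding intensity (log2, x axis) of GR (left) and RELA (right) at each of the 11 sites, with the single agent (open circle) and IL1B-plus-budesonide (filled square). The grey band spans the 5th to 95th percentile of all sites with IL1B-plus-budesonide, the grey line is their median and the dotted line is the intensity limit of a call. The MAFK site lies to the right in both panels, whereas the JUN site lies above the GR median and below the RELA limit.

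JUN, the founding JUN protein, had 1 site, at -145.6 kb (chr1:58929934-58930333), which overlapped exon 1 of the long noncoding RNA LINC02777. GR intensity was 5.82 with budesonide and 5.25 with IL1B-plus-budesonide, and RELA intensity was 3.07 with IL1B and 2.64 with IL1B-plus-budesonide. The site was thus called for GR alone, RELA lying under the intensity limit with both treatments. GR fold was 3.81 (FDR 6.9e-08) with budesonide and 3.22 (FDR 5.3e-06) with IL1B-plus-budesonide, a difference of -0.59. It was the only 1 of the 9 sites called for GR with either treatment at which the GR fold was lower by over 0.5 with both agents, against 34.0% of such sites in the whole table. RELA folds were 1.11 (FDR 0.35) and 0.55 (FDR 0.64).

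FOS, the prototype immediate early partner of JUN, had 4 sites spread over 86.59 kb of chromosome 14, from -24.0 kb to +62.2 kb. GR was called with both treatments at 3 of them and changed by less than 0.5 between treatments at each of these 3. RELA was called at 2, each with 1 treatment only.

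The most GR-intense was at +23.0 kb (chr14:75301771-75302170), between annotated genes, with the GRE core ACATTCTGT at its centre. GR intensity was 5.80 with budesonide and 5.62 with IL1B-plus-budesonide, at folds of 3.28 (FDR 2.3e-05) and 3.10 (FDR 6.9e-05). RELA intensity was 3.37 with IL1B and 4.71 with IL1B-plus-budesonide, at folds of 1.24 (FDR 0.15) and 2.76 (FDR 0.00054). GR was therefore much the same with either treatment, whereas the RELA call was gained with a difference in fold of 1.52, higher than at 82.8% of all sites.

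The neighbouring site at +16.4 kb (chr14:75295169-75295568), 6.602 kb away and overlapping exon 1 of LINC01220, had the highest RELA intensity with IL1B among FOS sites. RELA intensity was 4.89 with IL1B and 4.65 with IL1B-plus-budesonide, and GR intensity was 2.51 and 3.25. It was the only FOS site where GR lay under its intensity limit. RELA fold was 2.02 (FDR 0.047) with IL1B and 1.75 (FDR 0.084) with IL1B-plus-budesonide, so its call was lost on a difference of -0.27, with the 2 FDRs on either side of the limit. GR folds were 2.41 (FDR 0.18) and 3.10 (FDR 0.067) and neither was called.

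At -24.0 kb (chr14:75254382-75254781), the only FOS site upstream of the gene, lay the largest GR folds of the 4. GR intensity was 5.27 with budesonide and 4.87 with IL1B-plus-budesonide, and RELA intensity was 3.81 and 3.96. GR folds were 6.86 (FDR 1.9e-07) and 6.49 (FDR 8.7e-07), higher than at 92.3% and 90.0% of all sites. As each fold exceeded its intensity, the NS level it implies lies below 0, the lowest intensity in the table, and the size and rank of these folds rest on an NS level that the table does not give. RELA folds were -0.51 and -0.23, the only member values below NS. The most distant site, at +62.2 kb (chr14:75340969-75341368), gave GR intensities of 5.05 and 4.73 and RELA intensities of 2.81 and 2.49. It was also called for GR alone, with GR folds of 3.19 (FDR 0.00014) and 2.84 (FDR 0.00073) and RELA FDRs of 0.74 and 0.90.

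FOSL2, which encodes the FOS-related protein FRA2, had 5 sites over 127.3 kb of chromosome 2, compared with a median of 2 over the 4714 genes with any site. Their calls were of every kind except a lost GR call. GR was maintained at 3, gained at 1 and not called at 1. RELA was maintained at 1, gained at 2, lost at 1 and not called at 1.

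**Figure D2:**
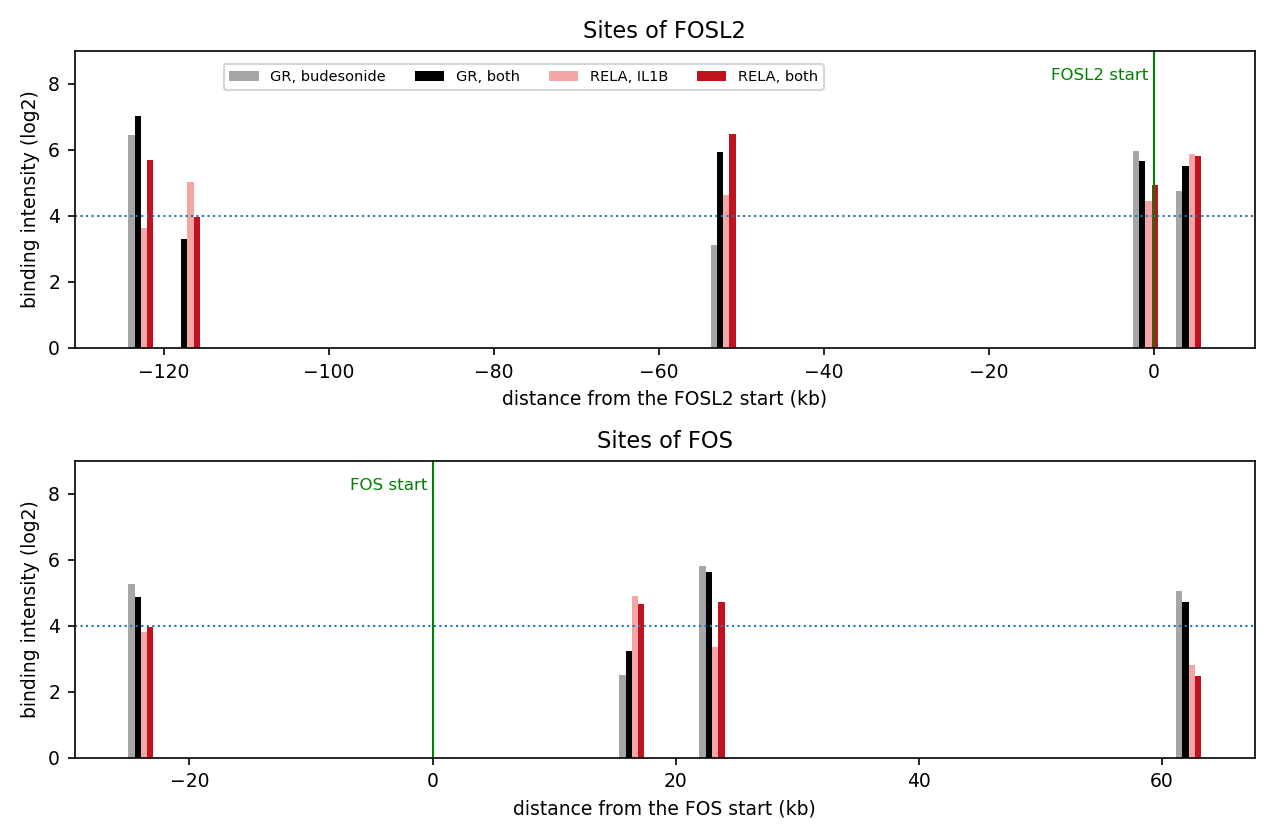
Binding intensity (log2, y axis) at the sites of FOSL2 (top) and FOS (bottom) by distance from the gene start (kb, x axis). The 4 bars of a site are drawn side by side around its position and so are wider than the site, the dotted line is the intensity limit of a call, and an absent bar is a deposited intensity of 0. FOSL2 has sites paired at its far upstream end and around its start, with 1 site between them where both factors are higher with IL1B-plus-budesonide.

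The site at -52.2 kb (chr2:28339852-28340251), between annotated genes and holding the palindromic κB element GGGAATTCCC, was the only member site where GR and RELA calls were both gained. GR intensity was 3.13 with budesonide and 5.95 with IL1B-plus-budesonide, and RELA intensity was 4.62 with IL1B and 6.48 with IL1B-plus-budesonide. GR thus went from below to well above the intensity limit, reaching the 84.4 percentile of all sites, and RELA reached the 95.1 percentile. GR folds were 0.90 (FDR 0.44) and 4.06 (FDR 4.2e-05), a difference of 3.16 that exceeded that of 95.9% of all sites. RELA folds were 1.97 (FDR 0.078) and 3.77 (FDR 0.00039), a difference of 1.80. The IL1B value met the fold and intensity limits and missed the FDR limit.

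The 2 far upstream sites lay 5.622 kb apart in intron 10 of BABAM2, which encodes a member of a DNA repair complex, and both held an AP-1 element. At -122.8 kb (chr2:28269298-28269697), GR intensity was 6.45 with budesonide and 7.03 with IL1B-plus-budesonide, the highest of the 5, and RELA intensity was 3.63 with IL1B and 5.71 with IL1B-plus-budesonide. GR was called with each treatment at folds of 8.69 (FDR 9.1e-10) and 9.21 (FDR 9.3e-11), higher than at 98.7% and 99.5% of all sites. These folds too exceeded the intensities, so their size and rank carry the same limit. RELA was gained, with folds of 2.26 (FDR 0.053) and 4.18 (FDR 0.00018), a difference of 1.93.

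At -117.1 kb (chr2:28274920-28275319), GR intensity was 0.00 with budesonide and 3.31 with IL1B-plus-budesonide, and RELA intensity was 5.02 with IL1B and 3.96 with IL1B-plus-budesonide. The neighbours thus differed, GR being called only at the first and RELA with IL1B alone only at the second. RELA folds at -117.1 kb were 3.09 (FDR 0.017) and 2.14 (FDR 0.10), and its call was lost with a difference of -0.95. GR folds were 1.56 (FDR 0.57) and 3.37 (FDR 0.16). GR was not called, and the intensity of 0 with budesonide leaves the change without a measured starting level.

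The sites around the start lay 5.648 kb apart. The site at -1.1 kb (chr2:28390988-28391387) was the member site nearest the start of its assigned gene and overlapped the antisense transcript FOSL2-AS1. GR intensity there was 5.97 with budesonide and 5.67 with IL1B-plus-budesonide, and RELA intensity was 4.44 and 4.93. GR was maintained at folds of 4.32 (FDR 8.3e-06) and 4.02 (FDR 3.6e-05). RELA met the intensity and fold limits with both treatments, at folds of 1.64 and 2.13, but not the FDR limit (0.20 and 0.075). At +4.2 kb (chr2:28396636-28397035), in intron 1 of FOSL2, GR intensity was 4.75 and 5.52 and RELA intensity was 5.86 with IL1B and 5.83 with IL1B-plus-budesonide. Both factors were maintained here, GR at folds of 2.77 (FDR 0.0080) and 3.58 (FDR 0.00055) and RELA at 2.10 (FDR 0.0040) and 2.06 (FDR 0.0049), and RELA differed by -0.05 between treatments.

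MAFK is a small MAF protein, which lacks an activation domain of its own and pairs with other leucine zipper proteins. Its single site, at -9.8 kb (chr7:1520539-1520938) between annotated genes, had the highest intensity of the 11 for both factors with IL1B-plus-budesonide and for RELA with IL1B. GR intensity was 6.18 with budesonide and 8.19 with IL1B-plus-budesonide, and RELA intensity was 8.35 with IL1B and 7.31 with IL1B-plus-budesonide. With both agents these exceeded 99.1% of all sites for GR and 98.5% for RELA. The 2 factors moved in opposite directions, both remaining called. GR folds were 2.32 (FDR 0.0041) and 4.46 (FDR 3.8e-08), a difference of 2.14, and RELA folds were 4.83 (FDR 6.1e-08) and 3.84 (FDR 1.8e-05), a difference of -0.99.

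The change from the single agent to IL1B-plus-budesonide differed in size and direction among the 11 sites. GR calls were gained at 1, against 15.1% of all sites, and lost at 0, against 10.5%. RELA calls were gained at 3 (9.90% of all sites) and lost at 2 (8.75%). These counts depended on the sites taken. Among the 18 sites within 50 kb of a member, GR calls were gained at 4 and RELA calls at 2, so that the GR share lay above that of all sites and the RELA share near it. Among the 15 sites with a member at the nearest coding start, they were gained at 2 and 3. Of the 9 sites called for GR with either treatment, 4 were higher by over 0.5 with IL1B-plus-budesonide, all of them at FOSL2 or MAFK, against 31.6% of such sites in the table. Of the 7 called for RELA with either treatment, 3 were higher (24.9% in the table) and 2 lower (30.9%). The 3 sites with higher RELA were FOS at +23.0 kb and FOSL2 at -122.8 and -52.2 kb, and the 2 with lower RELA were FOSL2 at -117.1 kb and MAFK.

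**Figure D3:**
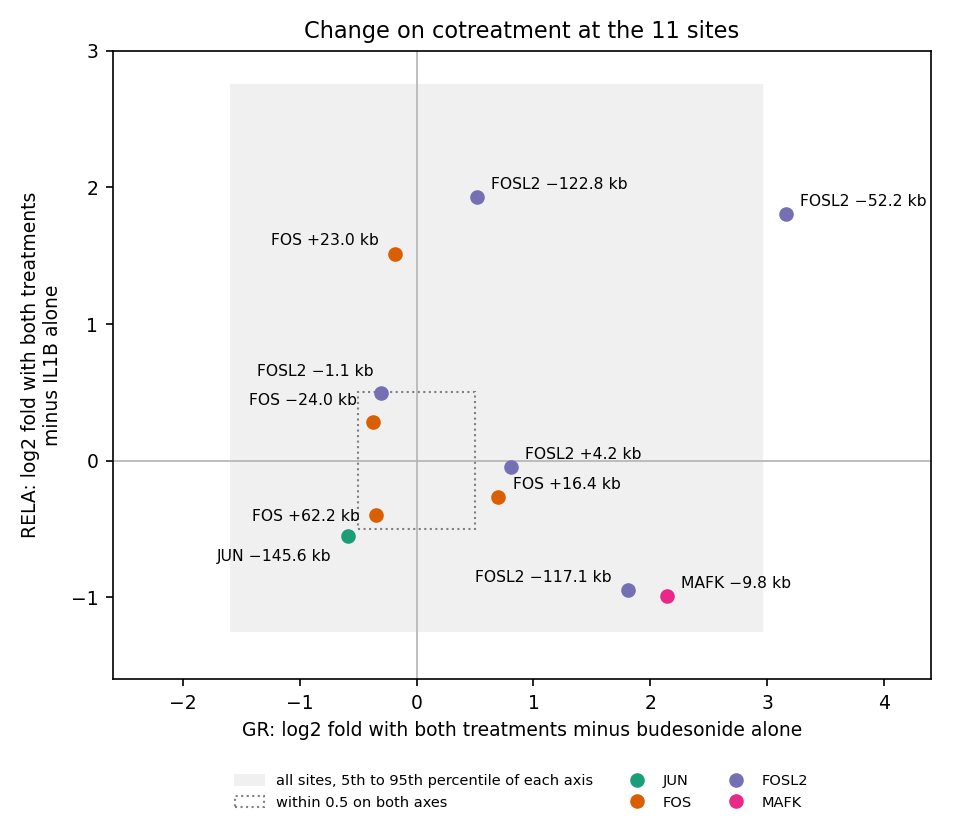
Difference in log2 fold between IL1B-plus-budesonide and the single agent for GR (x axis, against budesonide) and RELA (y axis, against IL1B) at the 11 sites, coloured by gene. The grey box spans the 5th to 95th percentile of all sites on each axis and the dotted box marks differences within 0.5. FOSL2 at -52.2 kb stands to the upper right, at 3.16 and 1.80, and MAFK at the lower right, at 2.14 and -0.99.

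The sites whose 4 folds were most like those of FOSL2 at -122.8 kb, by Euclidean distance over 11566 sites of other genes, were assigned to ASTN2 (0.677), USP9X (0.707) and PSD3 (0.716). They lay 577.1, 83.23 and 129.5 kb from the starts of these genes. The search used the GR folds whose NS level is not given, and the likeness is a description. At the ASTN2 site GR folds were 8.85 and 9.30 and RELA folds were 2.27 and 3.53.

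The 6 members without a line were looked up by position on the GENCODE annotation. Within 50 kb of the 10 genes there were 18 sites, of which 6 carried a member as nearest gene. JUNB, a JUN relative, had 3 sites in reach, MAFF, a second small MAF protein, had 5, and FOSB and FOSL1 had 1 each. MAFK had 2 besides its own, both assigned to INTS1. JUND and ATF3, the latter a stress-induced partner of JUN proteins, had none, their closest sites lying 83.51 and 76.69 kb away. The table assigned these sites to other genes, and by the nearest coding gene start 2 would pass to JUNB and 2 to MAFF, making 15 sites. In the whole table the assigned gene had the nearest coding start at 71.6% of sites and at 11 of the 11 member sites.

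Close to JUNB, a site 213 bp past the gene's end, assigned to HOOK2, had GR intensity of 3.75 with budesonide and 5.04 with IL1B-plus-budesonide, and RELA intensity of 7.16 with IL1B and 6.89 with IL1B-plus-budesonide. GR was gained, with folds of 0.19 (FDR 0.84) and 2.02 (FDR 0.0046), and RELA was maintained at 3.44 (FDR 7.3e-07) and 3.16 (FDR 6.3e-06). A second site 7.356 kb before the JUNB start was called for both factors with each treatment, with GR folds of 3.39 and 3.23 and RELA folds of 2.64 and 2.52. MAFF had a similar site 2052 bp past its end, assigned to PLA2G6. Unlike the JUNB gene-end site, this site would not pass to MAFF by the nearest coding start. GR intensity there was 2.50 with budesonide and 5.28 with IL1B-plus-budesonide, and RELA intensity was 8.04 and 7.62. GR was gained, with folds of 0.95 (FDR 0.50) and 3.96 (FDR 0.00087), and RELA was maintained at 3.86 and 3.45. Both gene-end sites were thus called for RELA with each treatment and for GR only with IL1B-plus-budesonide.

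The other sites near unlisted members were mixed. At 20.48 kb before MAFF, both factors were called with each treatment, and with IL1B-plus-budesonide the GR fold was higher by 0.96 and the RELA fold by 1.07. At 12.45 kb before FOSL1, which encodes FRA1, RELA was called at folds of 2.97 (FDR 0.0013) and 2.10 (FDR 0.026) and GR was not called. At 39.47 kb past the FOSB start, the GR call was gained with folds of 2.55 (FDR 0.064) and 2.88 (FDR 0.031), which differ by 0.33.

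Genes around AP-1 in its pathway were counted in the same way. Of 16 other leucine zipper genes, 9 had a site and together held 21, among them 6 of MAF and 3 each of BACH1 and NFE2L2. GR was called at 11 with budesonide and 14 with IL1B-plus-budesonide, and RELA at 11 with IL1B and 8 with IL1B-plus-budesonide, where the shares over all sites were 56.0%, 60.5%, 40.9% and 42.1%. GR calls were gained at 3 and lost at 0, and RELA calls were gained at 0 and lost at 3. Of 15 kinases upstream of AP-1, 7 had a site and held 18, of which 9 belonged to MAP3K8, the kinase TPL2 of the ERK pathway. There GR was called at 3 and 8 and RELA at 13 and 10. GR calls were gained at 6 of these 18 sites and lost at 1, and RELA calls were gained at 0 and lost at 3. Over all sites, GR calls were gained at 15.1% and lost at 10.5%, and RELA calls were gained at 9.90% and lost at 8.75%. Binding near a gene does not show its expression, which was not measured in these data.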

How the data were processed

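GR and RELA ChIP-seq libraries and inputs were mapped to groups by the GEO labels. The authors aligned reads to GRCh38 with Bowtie2 2.4.4. The submitters' processing notes also name bcl2fastq, FastQC 0.10.1, SAMtools, MACS2 2.2.7.1 and DiffBind 3.2, without roles or settings. The deposited table holds fold over NS and binding intensity, both taken as log2 values, and a deposited FDR, an adjusted p-value, at 11571 sites. The base of the logarithm and the scaling between libraries are not given in the sources used here. Where intensities were above 0, differences in fold and in intensity lay within 0.5 of each other at 90.61% of sites for GR and 86.48% for RELA. The fold and FDR are the authors' own comparisons, used as deposited because the table has no values per library. Sites are pooled over 2 libraries per condition, so no replicate error or test could be computed, and the 2 libraries per condition limit the precision.

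Calls were recomputed from FDR, fold and intensity, and gave the deposited class at 11571 of 11571 sites for each factor. The limits had been recovered in an earlier reading of these same deposited data, so this match is not an independent check. The deposited distance runs from the nearer edge of a site to the gene start. Sites were annotated with GENCODE 44, read with Python 3.11.15, pandas 2.3.3, NumPy 2.4.6 and pysam 0.24.0, and plotted with Matplotlib 3.10.9. The element search was tested on simulated data. Members and lists were chosen with earlier results of these data known. All members were named, with each site that was highest for a factor, gained, lost or nearest the start, and the sites most alike were sought for FOSL2, JUNB and ATF3 where they had a line. Alternatives changed the call limits, the assignment of sites and the element match. A further list, of AP-1 target genes, is not reported here.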

Additional observations from a re-analysis of the deposited data

How the results depend on the processing

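Of 44 alternatives, 29 left the member counts within 1.5 times and 15 moved them. Counts and not shares were compared, so the larger sets taken by position could move a count with little change in share. GR with IL1B-plus-budesonide, for example, was called at 9 of the 11 member sites. With all sites within 50 kb of a member, GR with IL1B-plus-budesonide was called at 16 of 18, RELA at 9 with IL1B and at 9 with IL1B-plus-budesonide, and GR was higher at 7 and lower at 0 with both agents. By the nearest GENCODE coding start, an assignment chosen after the data were seen, RELA was called at 7 of 15 with IL1B and at 8 with IL1B-plus-budesonide. With an FDR of at most 0.01, RELA was called with IL1B at 2. With a difference beyond 1, GR was higher at 2 and lower at 0, and RELA was lower at 0. The GRE count rose from 0 to 3 with 9 of 12 positions, which 43.4% of all sites held, and to 3 with the GRE core, chosen after the data were seen. The κB count rose to 9 with 8 of 9 positions, which 62.8% of all sites held. TGACGTCA in place of TGANTCA gave 0.

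No paired analysis was possible because the table holds no values per library, and for the same reason no replicate was left out. Depth per site is unknown. The lost RELA call at FOS +16.4 kb rests on FDRs of 0.047 and 0.084.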
